A study of Mus musculus with 3 samples.

Results

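The genes described here were 7 factors of naive T cell quiescence, Tcf7, Lef1, Satb1, Bach2, Foxo1, Igfbp4 and Dapl1, out of 32285 genes counted in mouse mesenteric lymph node. They were chosen by name from the gene symbols, with no measured value in the rule. Earlier results of these data were known when they were chosen. Each symbol matched 1 gene in each of 3 single-cell libraries. Their unique molecular identifiers (UMIs), which count captured transcripts, were summed over T cell gates, with B and myeloid gates as background.

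A naive T cell rests in the lymph node until it meets its antigen, and a set of transcription factors keeps it in that state. Tcf7, which encodes TCF-1, and Lef1 are DNA-binding factors with an HMG box that bind beta-catenin and Groucho/TLE corepressors. Satb1 organises chromatin, Bach2 is a repressor that opposes AP-1 factors, and Foxo1 drives homing and survival genes such as Ccr7, Il7r and Klf2 until Akt signalling removes it from the nucleus. Igfbp4, a secreted binding protein of insulin-like growth factors, and Dapl1 are known as transcripts of naive T cells. Bach2, Foxo1 and Satb1 are also used by B cells.

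The nodes drain the gut and came from mice fed orally for 4 weeks. The feedings were 5 mM citrate buffer, which a sample title calls an untreated control, 1 µg of free ovalbumin (free OVA), and 1 µg of ovalbumin in lyso-phosphatidylserine nanoparticles (LysoPS-OVA). Each feeding was 1 library made from the pooled nodes of 6 mice, with 10000 cells loaded for droplet sequencing with 3′ chemistry, and the labels used here give no strain, sex or age. Feedings were therefore set side by side with no test, and their 95% intervals cover counting error only. Gates were compared over the 3 libraries as pairs with edgeR's quasi-likelihood test, so those p-values rest on 3 differently fed pools. The test shares its estimate of spread across genes. A p-value therefore does not measure how closely the 3 pools agreed for that gene. Values of the 3 libraries are given in the order citrate buffer, free OVA, LysoPS-OVA.

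The libraries held 81559237 to 96616683 UMIs at medians of 1492 to 3686 per barcode, and 16025 to 21949 barcodes were kept in each. Pairs of libraries shared 166 to 194 barcode sequences. The citrate buffer library stood apart in doublet calls (17.0% against 5.92% and 7.49%) and in T gate barcodes with under 10% ribosomal protein UMIs (18.03% against 6.68% and 5.94%). The T gate took 5923, 3264 and 5139 barcodes, with median UMIs of 3792, 5144 and 5072, and the B gate 6554, 6385 and 6260, although the labels call the cells intestinal. Summed over Cd2, Thy1, Lck, Cd5, Lat and Skap1, which no gate used, T gates reached 2346 to 3976 CPM, which are UMIs scaled to the same total in every gate and library, the B gate 300 to 459 and the migratory dendritic gate 196 to 402.

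Within the T gate, naive CD4 barcodes carried Cd4 and a naive marker such as Ccr7, without activation genes (754, 463 and 872 barcodes), and effector-memory CD4 barcodes the reverse (155, 106 and 243). The Foxp3-positive CD4 gate held 109, 108 and 183 barcodes, of which 68.8%, 62.0% and 54.6% rested on a single Foxp3 UMI. The 4 effector genes kept for checking summed to 871, 793 and 834 CPM in the effector-memory CD4 gate, below the 895, 840 and 968 CPM of the naive CD4 gate. Of these, S100a6, Lgals1 and Ahnak were higher in the effector-memory gate in 3 of 3 libraries, and Crip1 was lower (415, 559 and 455 against 767, 737 and 864 CPM). The effector-memory CD4 gate also held regulatory transcripts, with Il2ra, Ikzf2 and Ctla4 summing to 1182, 916 and 1072 CPM against 2567, 2911 and 2584 in the Foxp3-positive gate and 170, 104 and 151 in the naive CD4 gate. The naive CD8 gate held 581, 201 and 364 barcodes. The memory-like CD8 gate held only 68, 41 and 48, and it carried myeloid RNA (Cst3, Lyz2, H2-Aa, Cd74 and Basp1 summing to 1597, 2384 and 717 CPM, against 644, 358 and 429 in naive CD8). Barcodes with a Trdc UMI (153, 87 and 176) still carried the alpha chain constant Trac (357, 432 and 325 CPM, against 523, 480 and 499 in the whole T gate) and the beta chain constant Trbc2 (1108, 981 and 1008 CPM), so they are called Trdc-positive T barcodes and not gamma delta T cells.

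On GRCm38 (mm10) with GENCODE release 21, Tcf7 (ENSMUSG00000000782) lies at chr11:52252371-52283014 on the minus strand, Lef1 (ENSMUSG00000027985) at chr3:131110471-131224356 (+), Satb1 (ENSMUSG00000023927) at chr17:51736187-51833290 (−) and Bach2 (ENSMUSG00000040270) at chr4:32238804-32586108 (+). Foxo1 (ENSMUSG00000044167) lies at chr3:52268336-52353221 (+), Igfbp4 (ENSMUSG00000017493) at chr11:99041244-99054392 (+) and Dapl1 (ENSMUSG00000026989) at chr2:59484653-59505020 (+). Counted genes overlap Tcf7 (A630014C17Rik, antisense), Lef1 (Gm43352, antisense), Bach2 (Bach2os, antisense, and Bach2it1, in an intron on the same strand) and Foxo1 (Gm20402, antisense). No source used here states the strand and intron settings of the counting, so UMIs in these stretches cannot be assigned to 1 of the genes with certainty.

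The promoters of the members were searched for letters that these factors themselves bind. The RefSeq table (GRCm38.p6) held 15 windows for 7 of 7 members, each from 250 bases before to 50 bases after a start site. Searched on both strands were CTTTGA or CTTTGT (TCF/LEF), GTAAACA (FOXO) and TGANTCA (BACH and AP-1). TCF/LEF letters were in 4 of the 15 windows, of Lef1, Satb1 and Bach2, beside 31.2% of all 32851 windows. FOXO letters were in 2, of Tcf7 and Dapl1, beside 3.65% of all windows, and BACH and AP-1 letters in 0, beside 7.81%. The Satb1 windows with a TCF/LEF match overlap each other and hold the same site. The windows with a FOXO match and the Lef1 window with 3 TCF/LEF matches are printed 5′ to 3′ on the strand of the gene, with the matched letters in capitals (the Lef1 matches lie on the other strand). The FOXO match began 164 bases before the Dapl1 start site and at base 2 after the Tcf7 start site, and the 3 in Lef1 began 180, 146 and 120 bases before its start site. The start sites of the Tcf7 and Lef1 windows lie outside GENCODE release 21 exons of these genes. A match is a description of the letters, not evidence of binding.
Tcf7, chr11:52282546-52282845 (−): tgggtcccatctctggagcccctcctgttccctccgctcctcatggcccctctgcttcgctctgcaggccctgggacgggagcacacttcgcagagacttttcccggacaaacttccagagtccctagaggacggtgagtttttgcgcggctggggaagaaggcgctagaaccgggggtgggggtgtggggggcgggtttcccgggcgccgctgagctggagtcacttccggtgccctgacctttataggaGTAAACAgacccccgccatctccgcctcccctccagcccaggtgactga
Lef1, chr3:131156044-131156343 (+): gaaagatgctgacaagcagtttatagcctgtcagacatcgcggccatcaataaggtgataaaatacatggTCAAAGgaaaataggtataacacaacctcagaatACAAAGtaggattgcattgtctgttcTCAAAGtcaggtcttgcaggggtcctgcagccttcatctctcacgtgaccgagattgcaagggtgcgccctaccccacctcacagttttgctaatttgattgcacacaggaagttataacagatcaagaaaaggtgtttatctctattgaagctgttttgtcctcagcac
Dapl1, chr2:59484403-59484702 (+): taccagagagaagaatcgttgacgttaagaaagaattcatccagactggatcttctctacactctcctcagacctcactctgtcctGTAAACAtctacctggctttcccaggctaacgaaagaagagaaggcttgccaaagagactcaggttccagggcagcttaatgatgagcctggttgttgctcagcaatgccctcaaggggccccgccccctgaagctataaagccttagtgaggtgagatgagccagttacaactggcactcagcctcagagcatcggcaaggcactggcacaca

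Across CD4 T cells, 5 of the 7 genes were higher in naive than in effector-memory barcodes, Lef1, Satb1, Bach2, Igfbp4 and Dapl1, and Tcf7 and Foxo1 did not pass the test. A gene counts as called at a Benjamini-Hochberg adjusted p below 0.05 over all genes tested, and 14.6% of 9564 genes were called in this contrast. The median log2 difference of the 7 was 0.90 beside 0.00 over all genes. In a sum over a gate, fewer cells with a transcript and less of it per cell cannot be told apart.

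In CD8 T cells, 6 of the 7 were higher in naive than in memory-like barcodes and Foxo1 was not called, where 4.28% of 7250 genes were called (median log2 difference 0.96 beside 0.00). Without the citrate buffer library 3 of the 7 were called, Lef1, Satb1 and Igfbp4. Under 0.5% Malat1, a nuclear transcript, were 30.9%, 46.3% and 4.17% of memory-like and 3.61%, 11.4% and 4.40% of naive CD8 barcodes. Minimums of 0.5% Malat1 and 10% ribosomal UMIs left 33, 19 and 43 memory-like barcodes. The Tcf7 and Dapl1 calls were then lost, and those of Lef1, Satb1, Bach2 and Igfbp4 were kept. The part of this difference in the contrast was not tested. Foxp3-positive CD4 barcodes were lower than naive CD4 barcodes in 6 of the 7, again without Foxo1, where 16.5% of 9624 genes were called (median −1.05 beside −0.01). Against effector-memory CD4 barcodes the Foxp3-positive gate was lower in 1 of the 7, Tcf7, where 3.16% of 7221 genes were called. Without the citrate buffer library 4 of the 7 were called lower in that contrast, Tcf7, Lef1, Satb1 and Igfbp4. With at least 2 Foxp3 UMIs required 4 were also called lower, with Dapl1 in place of Satb1.

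Naive CD8 and naive CD4 barcodes differed in 5 of the 7, where 12.4% of 9970 genes were called: Dapl1 was higher in CD8, and Igfbp4, Bach2, Foxo1 and Satb1 were lower. Without the LysoPS-OVA library 3 of these calls were left, with Satb1 and Foxo1 lost. Trdc-positive T barcodes were lower than naive CD4 barcodes in 4 of the 7, Lef1, Satb1, Bach2 and Igfbp4, where 5.27% of 9439 genes were called.

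**Figure D1:**
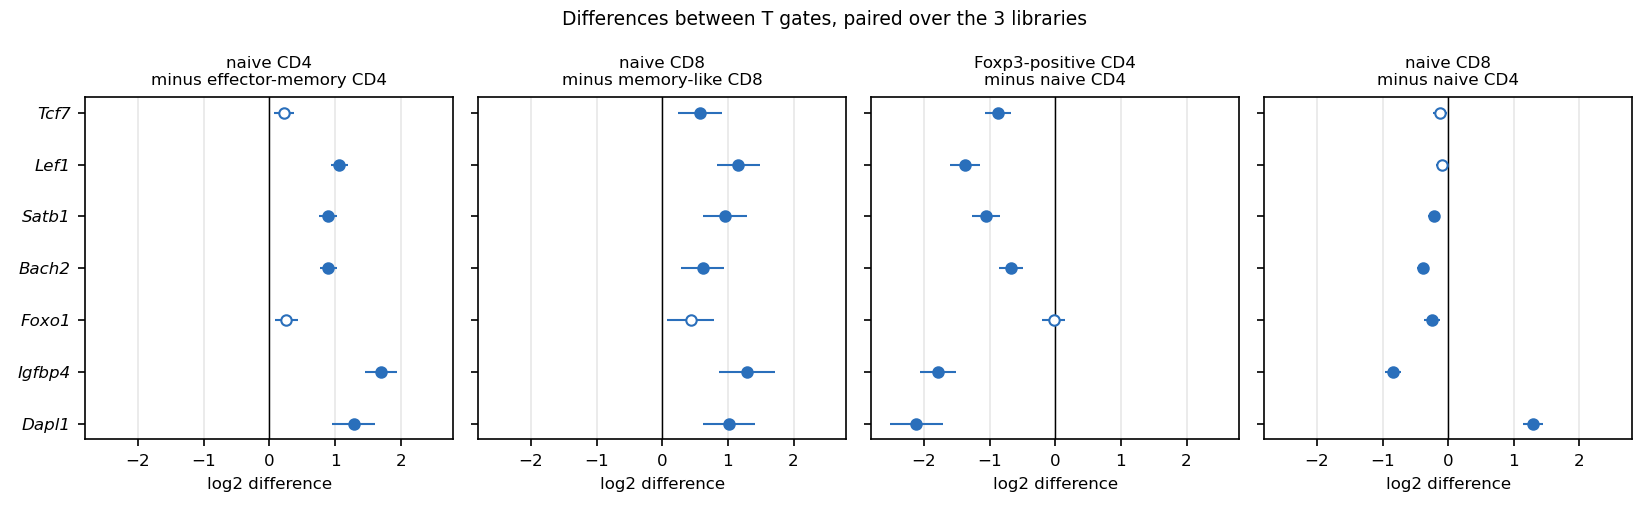
Log2 differences of the 7 genes (rows) between T gates in 4 contrasts, from edgeR paired over the 3 libraries. Bars are approximate 95% intervals from the SE, which can be narrower than those of the test. Filled points have an adjusted p below 0.05. In the first 2 panels all points lie right of 0, in the third all lie at or left of 0 with Foxo1 at −0.03, and in the fourth Dapl1 is the only point to the right.

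Against the background gates the members split. T barcodes were higher than B barcodes in 5 of the 7, lower in Bach2 and not called in Foxo1, where 56.0% of 14797 genes were called. T barcodes were higher than migratory dendritic barcodes in 7 of 7, where 65.1% of 12869 genes were called. B barcodes were higher than migratory dendritic barcodes in Satb1, Bach2 and Foxo1 and lower in the other 4, where 63.3% of 13409 genes were called. Of the migratory dendritic barcodes 84.1%, 90.3% and 88.0% had under 0.5% Malat1, a nuclear transcript, against 10.5%, 24.7% and 6.09% of T barcodes, and the part of this difference in these contrasts was not tested. In dendritic barcodes past the Malat1 and ribosomal minimums (167, 172 and 58) Bach2 was at 559, 572 and 403 CPM, against 290.1, 223 and 265 CPM in the whole gate, and the T minus dendritic difference of Bach2 was 0.84 with these minimums against 1.36 without. The B minus dendritic call of Satb1 was lost with them (0.28, adjusted p = 0.344, against 0.67), and that of Dapl1 without the library block and in gates thinned to 1000 UMIs.

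Lef1 had its highest level in naive CD4 barcodes, at 1809, 1606 and 1705 CPM, followed by naive CD8 barcodes at 1779, 1472 and 1439.7 CPM. These gates overlapped, and their difference was not called (log2 difference −0.10, SE 0.043, adjusted p = 0.139). Effector-memory CD4 barcodes held 1023, 862 and 834 CPM and Foxp3-positive barcodes 1116, 536 and 609 CPM. Every library was higher in the naive CD4 gate than any library in either of these, with a naive minus effector-memory difference of 1.07 (SE 0.064, edgeR adjusted p = 1.16e-12) and a Foxp3-positive minus naive difference of −1.38 (SE 0.12, adjusted p = 4.98e-10). Memory-like CD8 barcodes were at 873, 726 and 595 CPM, 1.16 log2 below naive CD8 (SE 0.17, adjusted p = 1.60e-09). The B gate held 174, 59.6 and 71.0 CPM, so the T gate stood 3.996 log2 above it (SE 0.28, adjusted p = 8.34e-05).

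Tcf7 varied less than Lef1 between T gates. Its naive CD4 level was 526, 408 and 389.9 CPM and its effector-memory CD4 level 493, 362 and 399 CPM. The gates overlapped, and naive was higher in 2 of 3 libraries (log2 difference 0.22, SE 0.077, adjusted p = 0.0594). Foxp3-positive barcodes held 362, 193 and 245 CPM, all below every naive CD4 library (difference −0.87, SE 0.10, adjusted p = 1.29e-07). They were also lower than effector-memory CD4 barcodes within each of the 3 libraries, although the ranges overlapped (difference −0.66, SE 0.12, adjusted p = 0.00169). Tcf7 was at 450.2, 347 and 386 CPM in naive CD8 and 333, 181 and 311 CPM in memory-like CD8 barcodes (difference 0.57, SE 0.17, adjusted p = 0.0241). That call was made in 3 of 9 alternatives, and was lost without the citrate buffer or the free OVA library, with DESeq2, without the library block, with the Malat1 and ribosomal minimums and in thinned gates.

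The balance of the HMG-box factors was read as a share of their joint UMIs. Tcf7 gave 22.5%, 20.3% and 18.6% of the UMIs of Tcf7 and Lef1 together in naive CD4 barcodes and 20.2%, 19.1% and 21.1% in naive CD8 barcodes. It gave 32.5%, 29.6% and 32.4% in effector-memory CD4 barcodes, above both naive gates in every library. Foxp3-positive barcodes lay between, at 24.5%, 26.4% and 28.7%. Memory-like CD8 barcodes were at 27.6% with citrate buffer and 34.3% with LysoPS-OVA, and lower with free OVA, on 29 Tcf7 beside 116 Lef1 UMIs. In the B gate the share was 26.3%, 19.8% and 22.5%, within the span of the T gates. In the migratory dendritic gate it was 48.7%, 51.9% and 47.2%, on 385, 387 and 163 Tcf7 UMIs, above every T and B value. In dendritic barcodes past the Malat1 and ribosomal minimums it was 48.8%, 26.7% and 39.4%, on 59, 23 and 26 Tcf7 UMIs, and the free OVA value then lay below the 35.3%, 29.6% and 32.3% of effector-memory CD4 barcodes under the same minimums. Dendritic barcodes without any UMI of Cd3d, Cd3e, Cd3g or Trac held 161, 88.3 and 117 CPM of Tcf7. The whole dendritic gate, which already allowed at most 1 such UMI, held 158, 86.1 and 113 CPM. The part of T cell RNA in these values was not tested.

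**Figure D2:**
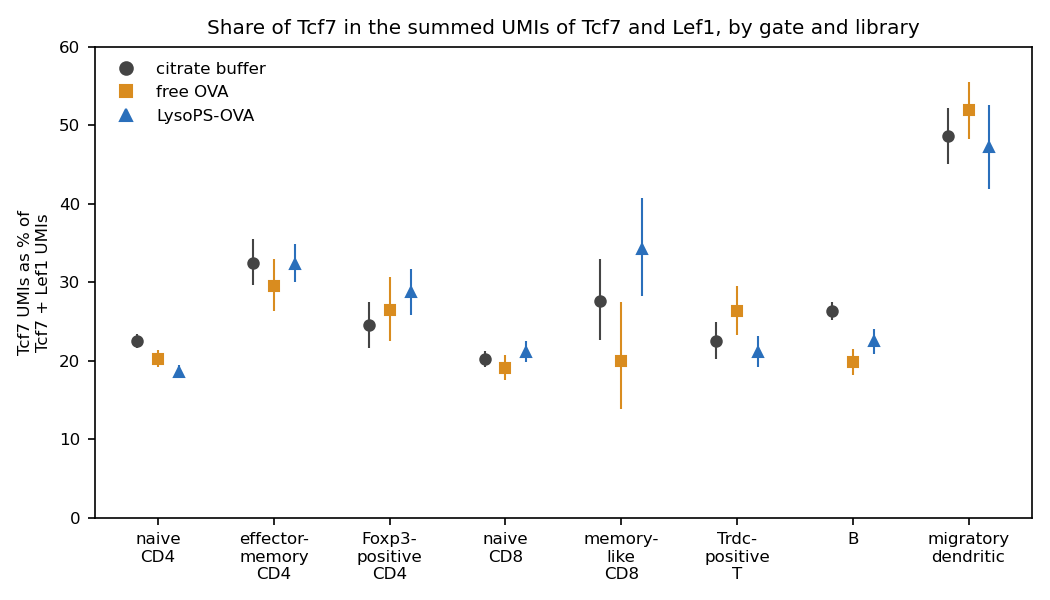
Tcf7 UMIs as a percentage of Tcf7 and Lef1 UMIs (vertical axis) by gate and library, with exact binomial 95% intervals that cover counting error only. The 3 effector-memory CD4 points, at 29.6% to 32.5%, lie above the naive points, and the 3 migratory dendritic points lie at 47.2% to 51.9%.

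Partners of these factors were read in the same contrasts. Of 10 TCF and LEF partners tested between naive and effector-memory CD4 barcodes, 2 were higher in naive: Bcl9, a beta-catenin adaptor (log2 difference 0.74, SE 0.15, adjusted p = 0.000545), and Tle5, a short Groucho family member (0.25, SE 0.080, adjusted p = 0.0373). The list's median was 0.16 beside 0.00 over all genes, and 14.6% of all genes were called. In Foxp3-positive against naive CD4 barcodes 3 of the 10 were lower, Bcl9 (−0.95), Tle4 (−0.48) and Tle5 (−0.35), and 0 were higher. There 16.5% of all genes were called. Axin2, a feedback target of beta-catenin signalling, was 4.04 log2 higher in the T than in the B gate (SE 0.23, adjusted p = 4.00e-05), where 56.0% of all genes were called. The relatives Tcf7l2 and Tcf7l1 were lower in the T than in the migratory dendritic gate, by −4.21 (SE 0.26) and −3.32 (SE 0.34), where 65.1% of all genes were called.

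Satb1 followed Lef1. Naive CD4 barcodes held 1235, 1008 and 941 CPM, effector-memory CD4 770.0, 601 and 539.7 CPM, and Foxp3-positive 859, 417 and 465 CPM. Naive CD4 was above the others in every library, by 0.89 log2 over effector-memory (SE 0.067, adjusted p = 9.73e-11) and with a difference of −1.05 for Foxp3-positive barcodes (SE 0.11, adjusted p = 1.03e-08). Naive CD8 barcodes held 1092, 794 and 794 CPM, slightly under naive CD4 in each library (−0.22, SE 0.045, adjusted p = 0.000387), and memory-like CD8 877, 338 and 318 CPM. The citrate buffer value of the memory-like gate overlapped the naive CD8 range, and the other 2 did not. The B gate was at 441, 417 and 408 CPM, 1.11 log2 below the T gate (SE 0.087, adjusted p = 0.000135), so B barcodes were no silent background for this gene.

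Bach2 was highest outside the T cells, at 2184, 1901 and 2073 CPM in the B gate, and the T gate stood at 1165, 934 and 1027 CPM (T minus B −0.94, SE 0.062, adjusted p = 6.70e-05). Among T gates naive CD4 led with 1287, 1197 and 1190.2 CPM, and effector-memory CD4 held 821, 691 and 685 CPM, with no overlap (0.90, SE 0.065, adjusted p = 6.32e-11). Foxp3-positive barcodes held 1082, 738 and 739 CPM, lower than naive CD4 in each library (−0.68, SE 0.092, adjusted p = 2.03e-06). They did not differ from effector-memory barcodes by the test (0.21, 95% interval 0.01 to 0.42, adjusted p = 0.429). Naive CD8 barcodes were at 1000.3, 824 and 922 CPM, below naive CD4 with no overlap (−0.39, SE 0.045, adjusted p = 9.74e-09). Memory-like CD8 barcodes were at 810.4, 388 and 698 CPM (0.61, SE 0.17, adjusted p = 0.00715), a call made in 4 of 9 alternatives and lost, among others, without the citrate buffer or the free OVA library.

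Of 5 Bach2 partners and opposed factors tested between naive and effector-memory CD4 barcodes, Batf, an AP-1 factor, was lower in naive (−0.99, SE 0.16) and Nfe2l2 higher (0.68, SE 0.14). In that contrast 14.6% of all genes were called, beside 16.5% between Foxp3-positive and naive CD4 barcodes. In Foxp3-positive against naive CD4 barcodes, Prdm1, which encodes the repressor Blimp-1, was higher by 2.75 (SE 0.32, adjusted p = 1.89e-07) and Batf by 1.41 (SE 0.16), with Nfe2l2 lower (−0.78). Prdm1 was also lower in naive than in memory-like CD8 barcodes (−2.67, SE 0.62, adjusted p = 0.000884). The 2 SATB and FOXO relatives that could be tested had a median difference of −0.10 between naive and effector-memory CD4 barcodes, and neither was called. The 5 other IGF binding proteins had too few UMIs to be tested between T gates.

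Foxo1 was not called in any contrast among the naive CD4, effector-memory CD4 and Foxp3-positive gates, nor between naive and memory-like CD8 barcodes. It held 375, 285 and 263 CPM in naive CD4, 363, 222 and 267 CPM in effector-memory CD4 and 372, 282 and 325 CPM in Foxp3-positive barcodes. All 3 gates overlapped, with a naive minus effector-memory difference of 0.26 (SE 0.089, adjusted p = 0.0538). The Foxp3-positive minus naive difference was −0.03 (approximate 95% interval −0.20 to 0.15, adjusted p = 0.909). The naive minus effector-memory difference was called in 3 of 9 alternatives. These were no filter on low counts, no citrate buffer library, and the Malat1 and ribosomal minimums. Foxo1 was higher in T barcodes with under 10% ribosomal protein UMIs, as given below. Such barcodes made up 10.1%, 5.83% and 4.13% of the naive CD4 gate. They made up 29.0%, 9.43% and 13.2% of the effector-memory CD4 and 15.6%, 10.2% and 9.29% of the Foxp3-positive gate. The part of this in the Foxo1 differences was not tested. In naive CD8 barcodes Foxo1 was at 333, 196 and 228 CPM, lower than in naive CD4 within each library (−0.25, SE 0.063, adjusted p = 0.00527). That call was made in 4 of 9 alternatives, and was lost with DESeq2, without the library block, without the LysoPS-OVA or the free OVA library and in thinned gates. The T gate held 369, 239 and 261 CPM and the B gate 337, 245 and 275 CPM. No difference was called between them (0.05, approximate 95% interval −0.07 to 0.16, adjusted p = 0.504). The migratory dendritic gate was lower, at 93.7, 58.5 and 80.6 CPM.

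Igfbp4 had its highest level in naive CD4 barcodes. They held 445, 326 and 314 CPM, against 104, 156 and 107 CPM in effector-memory CD4 (1.71, SE 0.12, adjusted p = 5.61e-11) and 215, 81.4 and 74.2 CPM in Foxp3-positive barcodes (−1.79, SE 0.14, adjusted p = 1.30e-10). Neither gate overlapped the naive one. Naive CD8 barcodes held 230.3, 190.0 and 177 CPM, below every naive CD4 library (−0.84, SE 0.062, adjusted p = 4.68e-14), and memory-like CD8 114, 93.9 and 53.1 CPM. Trdc-positive barcodes, at 315, 203 and 199 CPM, overlapped both naive gates. Igfbp4 was at 40.6, 12.8 and 14.4 CPM in the B gate and 64.1, 23.8 and 36.8 CPM in the dendritic gate. Stromal cells can also make it: of the stromal and endothelial markers Col1a1, Col3a1, Pdpn and Pecam1 (4 genes), which summed to 332, 316 and 307 CPM in naive CD4 barcodes, nearly all was Pecam1 (326, 316 and 306 CPM), which was lower in effector-memory CD4 barcodes (234, 244 and 248 CPM). The collagen gene Col1a1 was at 1.49, 0 and 0 CPM in naive CD4 barcodes. Their part in the result was not tested.

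Dapl1 was the gene with the opposite order, since naive CD8 barcodes led at 234, 223 and 201 CPM. Naive CD4 barcodes held 105, 103 and 69.5 CPM, with no overlap (1.30, SE 0.078, adjusted p = 6.43e-17). Effector-memory CD4 barcodes fell to 58.2, 24.7 and 38.0 CPM (1.28 log2 below naive, SE 0.17, adjusted p = 1.54e-06) and Foxp3-positive barcodes to 26.2, 10.5 and 27.5 CPM, on 15, 7 and 30 UMIs (−2.12, SE 0.21, adjusted p = 6.98e-09). Memory-like CD8 barcodes held 90.0, 200.2 and 75.8 CPM on 23, 32 and 20 UMIs (1.01, SE 0.20, adjusted p = 4.84e-05). The free OVA library stood above the other 2 there, and the call was made in 5 of 9 alternatives and lost, among others, without the citrate buffer library. B barcodes held 11.6, 3.58 and 2.65 CPM.

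**Figure D3:**
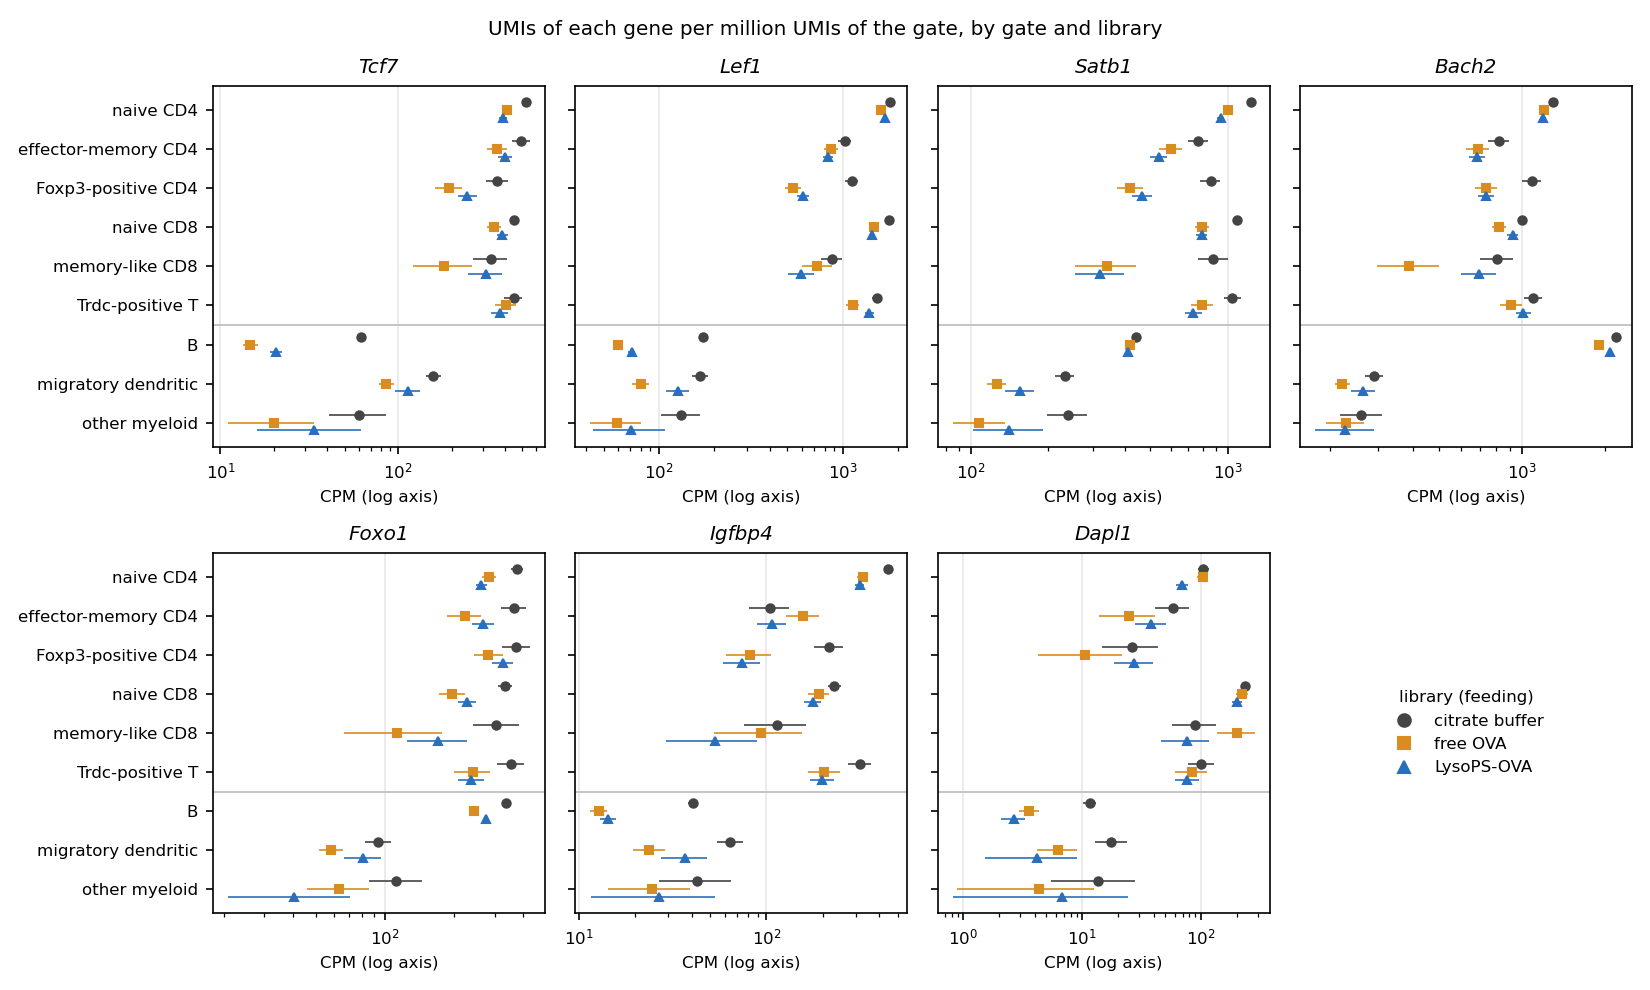
CPM of each gene (log axis, 1 panel per gene) by gate and library. Lines are exact Poisson 95% intervals that cover counting error only, and the grey line parts T gates from background gates. Bach2 peaks in the B gate (1901 to 2184 CPM), Dapl1 in naive CD8 (201 to 234 CPM) and Igfbp4 in naive CD4 barcodes (314 to 445 CPM), while Foxo1 overlaps between most T gates and the B gate.

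Genes with related roles were read in the same contrasts. Of all genes, 14.6% were called between naive and effector-memory CD4 barcodes and 16.5% between Foxp3-positive and naive CD4 barcodes. Of 10 naive surface and signalling genes, 8 were higher in naive than in effector-memory CD4 barcodes and 0 lower (median 0.97), led by Ly6c1 (2.21), the egress receptor S1pr1 (1.20), Treml2 (1.11) and the kinase Txk (1.06). Against naive CD4, Foxp3-positive barcodes were lower in 10 of the 10. In contrast, of 18 further quiescence factors 4 were higher and 2 lower in naive than in effector-memory CD4 barcodes, and 12 were not called (median 0.07). The PI3K inhibitor Pik3ip1 (1.53, SE 0.15) and Klf2, a target of Foxo1 (1.14, SE 0.097), were higher, and Id3 (−0.97, SE 0.19) and Zfp36l1 (−0.71, SE 0.088) lower. Effector genes went the other way, with 14 of 16 lower and 1 higher in naive CD4 barcodes, led by Maf (−4.67) and S100a6 (−4.38).

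Between naive CD8 and naive CD4 barcodes, Runx1, a factor of CD4 cells, was lower in CD8 (−1.21, SE 0.057, adjusted p = 2.13e-20), as was Ets1 (−0.29), and Klf3 was higher (0.33). Of the 18 quiescence factors 2 were higher and 4 lower in that contrast, where 12.4% of all genes were called. Ly6c1 was lower in naive CD8 barcodes by −2.51 (SE 0.22).

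Over the 18 sums of 6 T gates in 3 libraries, the profiles of the members were compared with Pearson's r of log2(CPM + 10), as a description. The points share libraries, so the citrate buffer level enters each r. Lef1 and Igfbp4 were most alike among the members (r = 0.92), followed by Lef1 and Satb1 (0.89), and Foxo1 and Dapl1 least (−0.32). The genes most like Tcf7 were Nsg2 (0.91) and Prkcq (0.90); among those most like Satb1 was Actn1 (0.90); most like Igfbp4, besides Lef1, was S1pr1 (0.92). Bach2 was most like Stk38 and Letm2 (0.93 each), Foxo1 most like Rftn1 (0.92) and Cdkal1 (0.90), Lef1 most like Klhdc1 (0.93), and Dapl1 most like AB124611 (0.87) and Runx3 (0.85), a factor of CD8 cells. Among the closest to the mean of the 7 profiles were Stk38, Ablim1 and Tmem71 (0.90 each) and Actn1 (0.89).

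Naive barcodes often carried several members at once. To remove differences in depth, each barcode was thinned to 1000 UMIs, which left out 0 or 1 barcode in each of the T subset gates and 91 to 570 in the B gate. At least 3 of the 7 genes were then detected in 71.5%, 62.2% and 59.6% of naive CD4 barcodes and 63.3%, 45.5% and 53.2% of naive CD8 barcodes. The shares were 43.9%, 32.4% and 29.2% in effector-memory CD4 and 53.2%, 20.4% and 27.3% in Foxp3-positive barcodes, beside 19.4%, 8.99% and 10.9% in the B gate, where Bach2, Satb1 and Foxo1 are made. In the dendritic gate they were 4.96%, 1.62% and 2.98%. Before thinning, the naive CD8 shares were 96.9%, 94.5% and 98.1% and the B shares 60.3%, 48.5% and 58.5%.

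Lef1 was detected in 75.9%, 72.6% and 74.6% of thinned naive CD4 barcodes and in 16.0%, 6.43% and 6.37% of B barcodes (96.7%, 97.4% and 97.9%, and 34.3%, 19.5% and 22.6%, unthinned). Dapl1 was detected in 15.9%, 18.5% and 15.7% of naive CD8 and 6.90%, 7.34% and 5.74% of naive CD4 barcodes, with 1.32%, 0.361% and 0.276% in the B gate (34.1%, 42.3% and 38.5%, 18.7%, 22.2% and 15.6%, and 3.69%, 1.35% and 1.17% unthinned). The order of the gates by share was that by CPM for both genes.

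Within the T gate the members split by a feature the rule did not use. In barcodes with under 10% ribosomal protein UMIs (1068, 218 and 305 barcodes), Foxo1 was at 2.12, 2.30 and 2.74 times its CPM in the other T barcodes, Satb1 at 2.19, 1.95 and 2.02 times and Bach2 at 2.02, 1.98 and 1.77 times. Lef1 was at 1.61, 1.32 and 1.26 times and Tcf7 at 1.17, 1.07 and 1.18 times. Igfbp4 was at 0.420, 0.455 and 0.408 times and Dapl1 at 0.336, 0.280 and 0.248 times. The 2 genes that were lower there in all 3 libraries span 13.1 and 20.4 kb, Tcf7 spans 30.6 kb, and the other 4 span 84.9 to 347.3 kb. Over all genes tested except ribosomal and mitochondrial ones, the median log2 ratio was itself 0.634, 0.630 and 0.685. Tcf7 lay below it, at percentile 33.7, 29.2 and 30.4 of these genes, as did Igfbp4 and Dapl1. Lef1 was at percentile 53.0, 38.6 and 33.1, and Satb1, Bach2 and Foxo1 were above the median in every library. The median rose with span, from −1.132, −1.002 and −1.01 for genes up to 10 kb to 1.06, 1.08 and 1.11 for genes over 100 kb.

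**Figure D4:**
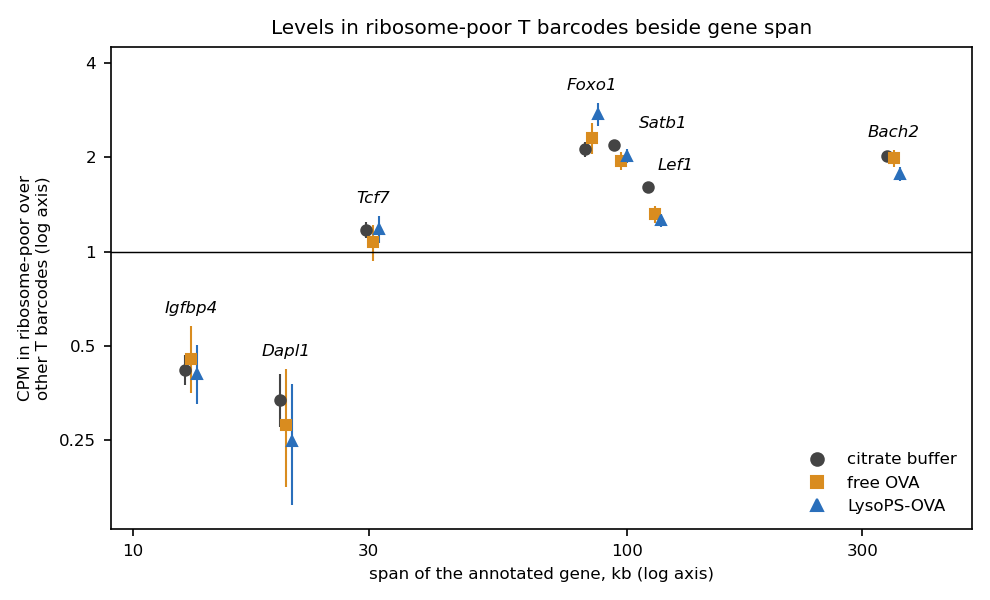
Ratio of CPM in T barcodes under 10% ribosomal protein UMIs over the other T barcodes (log axis) against the span of the annotated gene in kb (log axis), with the libraries offset slightly along the horizontal axis. Lines are conditional binomial 95% intervals for counting error. Igfbp4 and Dapl1 lie below 1 and Satb1, Bach2 and Foxo1 at 1.77 to 2.74.

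Feeding was compared next, and a gene was called past 1.5-fold on log2(CPM + 10) if its higher library had at least 50 CPM and 30 UMIs. Both ovalbumin comparisons share the citrate buffer library. In the T gate 0 of the 7 genes were called for LysoPS-OVA over citrate buffer, where 1.93% of 3368 genes were, and 1 of 7 for free OVA over citrate buffer, where 1.67% of 3352 were. For LysoPS-OVA over free OVA 0 of 7 were called, beside 0.626% of 3193.

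The T gate levels lay below citrate buffer by less than the call asks for nearly all members. For LysoPS-OVA over citrate buffer the 7 ratios ran from 0.707 (Foxo1, 95% interval 0.685 to 0.729) to 0.899 (Lef1, 0.886 to 0.912), with a median log2 ratio of −0.33. For free OVA over citrate buffer 6 of 7 ratios were below 1, from 0.648 for Foxo1, the called gene (0.624 to 0.673), to 0.802 for Bach2, and Dapl1 was at 1.04 (0.984 to 1.11). The median over all genes was itself −0.11 and −0.12 log2 in these comparisons, and relative to it Foxo1 stood at −0.38 and −0.49 and Lef1 at −0.04 and −0.22. Between the ovalbumin feedings the ratios were 1.002 to 1.14 for 6 genes and 0.751 for Dapl1 (0.708 to 0.797). The log2 ratio of Igfbp4 changed sign in 4 of 7 alternatives and that of Satb1 in 1. With Malat1 and ribosomal minimums Igfbp4 was at 248 and 234 CPM and Satb1 at 815 and 792 CPM (free OVA, LysoPS-OVA). Tcf7, Lef1, Bach2 and Foxo1 stayed higher with LysoPS-OVA. Under 0.5% Malat1 were 24.7% and 6.09% of these T barcodes, and the part of this was not tested.

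Citrate buffer T barcodes were more often poor in ribosomal UMIs (18.03% against 6.68% and 5.94%), and the part of this in the feeding ratios was not tested. Among T barcodes with 10% or more, Foxo1 was at 330.0, 228 and 246 CPM, Satb1 at 978, 754 and 776 CPM and Igfbp4 at 324, 233 and 233 CPM. Dapl1 was at 127, 126 and 94.7 CPM there, with citrate buffer and free OVA close and LysoPS-OVA lower.

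In the naive CD4 gate 0 of the 7 were called in each comparison, beside 2.61% of 3291 genes for LysoPS-OVA over citrate buffer, 2.45% of 3311 for free OVA over citrate buffer and 0.725% of 3174 for LysoPS-OVA over free OVA. Ratios to citrate buffer were 0.663 to 0.942 with LysoPS-OVA and 0.734 to 0.986 with free OVA. Dapl1 had the lowest ratio of LysoPS-OVA to free OVA, 0.672 (0.572 to 0.791), where the other 6 were 0.923 to 1.06. In the naive CD8 gate 0 of 7, 1 of 7 (Foxo1, 0.589, 0.510 to 0.679, free OVA over citrate buffer) and 0 of 7 were called, beside 3.39% of 3300, 4.15% of 3322 and 1.61% of 3174 genes. There Dapl1 was at 0.904 for LysoPS-OVA over free OVA (0.776 to 1.05).

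In the Foxp3-positive gate more members were called, and Dapl1, at 7 to 30 UMIs, fell under the level needed for a call. For LysoPS-OVA over citrate buffer 3 of 6 were called lower, where 8.89% of 3700 genes were called in either direction: Igfbp4 (0.345, 0.257 to 0.460), Satb1 (0.542, 0.478 to 0.615) and Lef1 (0.546, 0.489 to 0.609). For free OVA over citrate buffer 4 of 6 were called lower, where 11.8% of 3715 were: Igfbp4 (0.378), Lef1 (0.481), Satb1 (0.486) and Tcf7 (0.533). For LysoPS-OVA over free OVA 0 of 6 were called, beside 6.12% of 3707. Of the other naive surface genes 4 of 8 were called lower in the LysoPS-OVA and 6 of 7 in the free OVA library against citrate buffer, and 0 were higher. This gate rests on 1 Foxp3 UMI in 68.8%, 62.0% and 54.6% of its barcodes, and with at least 2 (34, 41 and 83 barcodes) Lef1 was at 992, 356 and 473 CPM and Satb1 at 856, 374 and 411 CPM. Tcf7 was at 218, 152 and 189 CPM there, and its call for free OVA was not made. The interval of its LysoPS-OVA ratio to citrate buffer (0.595 to 1.28) spans 1. Igfbp4 was at 114 CPM with citrate buffer and 52.9 CPM with free OVA there, on 21 and 15 UMIs, under the 30 a call needs.

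**Figure D5:**
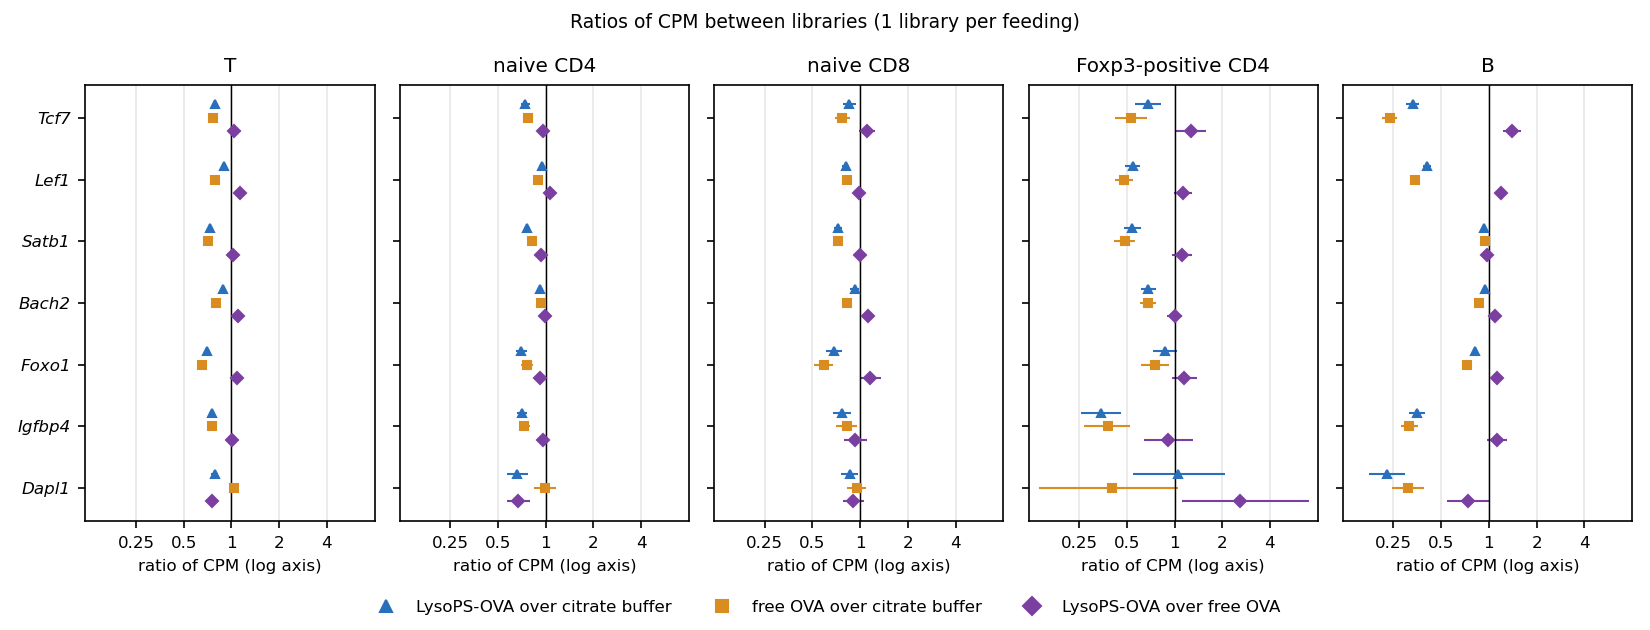
Ratios of CPM between libraries (log axis) for the 7 genes in 5 gates, with conditional binomial 95% intervals for counting error only. Most ratios to citrate buffer lie left of 1, while in T barcodes the ratios of LysoPS-OVA to free OVA lie at 1.002 to 1.14 except for Dapl1 (0.751).

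The background gate moved with the feedings too. In B barcodes Tcf7 was at 62.2, 14.7 and 20.6 CPM, Lef1 at 174, 59.6 and 71.0 CPM, Igfbp4 at 40.6, 12.8 and 14.4 CPM and Dapl1 at 11.6, 3.58 and 2.65 CPM. The citrate buffer library was highest for all 4, at LysoPS-OVA ratios of 0.331, 0.408, 0.354 and 0.229. The T cell genes Trbc2 (95.6, 25.8 and 33.3 CPM) and Trac (17.1, 6.20 and 9.61 CPM) were also highest in the B gate of that library. The B gate allowed at most 1 UMI of Cd3d, Cd3e, Cd3g and Trac, and its barcodes with 0 held 58.5, 14.4 and 18.9 CPM of Tcf7. Bach2, Satb1 and Foxo1, which B cells make, had ratios of 0.949, 0.926 and 0.818 there. The part of RNA from other cells in the feeding ratios of the T gates was not tested.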

How the data were processed

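RNA of single cells from pooled mesenteric lymph nodes was measured once for each feeding. The deposited matrices hold whole-number UMI counts, not normalized, per the file headers; the submitters' processing notes name Cell Ranger 7.2.0 and mm10. No source used here gives the annotation version or the strand and intron settings. Barcodes under 300 genes or over 10% mitochondrial UMIs were dropped, and doublets were removed with Scrublet in scanpy 1.11.5 (expected rate 0.8% per 1000 barcodes), which called 17.0%, 5.92% and 7.49%. Gates were set on UMIs of marker genes: T, at least 2 over Cd3d, Cd3e, Cd3g and Trac with at most 1 B and 1 myeloid UMI; B, the converse over B cell genes such as Cd79a, Cd79b and Ms4a1; migratory dendritic, at least 3 over Fscn1, Ccl22, Ccl17 and Cacnb3. Median UMIs per barcode were 3265 to 6567 in T gates, 3114 to 4521 in the B gate and 1522 to 1797 in the dendritic gate.

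UMI sums per library and gate were compared over 9 gate contrasts with edgeR 4.0.16 (TMM, filterByExpr, quasi-likelihood test, library as block) and limma 3.58.1 in R 4.3.3, with Benjamini-Hochberg adjustment over all genes tested. SEs were derived from the F statistic. Intervals of gate contrasts are a normal approximation from these SEs, so they can be narrower than those of the test. Feedings had 1 library each and were compared as CPM ratios with no test; intervals are 95% exact Poisson, conditional binomial or Clopper-Pearson. Alternatives included DESeq2 1.42.0, other filters, scalings and gates, thinning to 1000 or 2000 UMIs and leaving out each library. Those on at least 2 Foxp3 UMIs, on Trdc barcodes with a gamma constant UMI and 0 Trac, on background gates with 0 T UMIs on ribosome-poor barcodes and on the Tcf7 share with Malat1 and ribosomal minimums were chosen after seeing the data. The fits were tested on simulated counts.

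The 7 members were always named, as were at most 4 called genes per list and contrast with the largest log2 difference and the genes with the highest Pearson r (up to 2 per member and 5 for their mean; some gate genes and named genes are not reported here). Lists were quiescence factors, naive surface and signalling, TCF and LEF partners, Bach2 partners and opposed factors, other SATB and FOXO members, IGF binding proteins, and effector and activation genes, with gate genes left out. Members and lists were chosen with earlier results of these data known. Tables and figures were made in Python 3.11.15 with pandas 2.3.3, matplotlib 3.10.9, scipy 1.17.1 and numpy 2.4.6.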

Additional observations from a re-analysis of the deposited data

Results flagged for a closer look

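Over the 6 T subset gates and the B gate, in 3 cases a member went one way between feedings in 1 gate and the other way in other gates, with each counting interval clear of 1. None of these differences was tested, since there was 1 library per feeding, and 1 gate in many can depart by chance.

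Igfbp4 was 1.502 times as high with free OVA as with citrate buffer in effector-memory CD4 barcodes (156 against 104 CPM, on 95 and 68 UMIs), where the naive CD4, naive CD8, Foxp3-positive, Trdc-positive and B gates (5 gates) were lower. In the same gate LysoPS-OVA was at 107 CPM.

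Dapl1 was 2.224 times as high with free OVA as with citrate buffer in memory-like CD8 barcodes, on 32 UMIs in 41 barcodes against 23 in 68, where the effector-memory CD4 and B gates (2 gates) were lower. That gate held the most Cst3, a myeloid transcript, in the free OVA library (1001 CPM, against 446 and 193), and its part was not tested.

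Dapl1 was 2.604 times as high with LysoPS-OVA as with free OVA in Foxp3-positive CD4 barcodes, on 30 against 7 UMIs, where 2 other gates were lower (0.672 in naive CD4 and 0.379 in memory-like CD8 barcodes).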

How the results depend on the processing

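Of 579 log2 differences of single members over the alternatives to the gate contrasts, 513 kept sign and call, 42 kept the sign and lost the call, 14 gained it, 1 called value reversed, and 9 values that were not called changed sign (Foxo1, Igfbp4 and Tcf7). Gate contrasts were paired by library; feedings have 1 library each, so no pairs exist between them. Gating on barcodes thinned to 1000 UMIs left 7, 11 and 16 Foxp3-positive and 48, 26 and 31 memory-like CD8 barcodes. Members called then numbered 1 of 4 that could be fitted (main 6) for Foxp3-positive minus naive CD4, 0 of 3 (main 1, Tcf7, which could not be fitted) for Foxp3-positive minus effector-memory CD4, 1 of 7 (main 6) for naive minus memory-like CD8, 0 of 7 (main 5) for naive CD8 minus naive CD4 and 1 of 6 (main 4) for Trdc-positive minus naive CD4. Differences without a call were then −1.66, −1.09 and −0.92 for Tcf7, Satb1 and Bach2 in Foxp3-positive minus naive CD4 (main −0.87, −1.05 and −0.68), and 1.25, −0.68 and −0.35 for Dapl1, Igfbp4 and Bach2 in naive CD8 minus naive CD4 (main 1.30, −0.84 and −0.39). The naive minus memory-like CD8 difference of Dapl1 reversed to −0.14, and in the Foxp3-positive gate the Igfbp4 log2(CPM + 10) ratios to citrate buffer of 3.75 (LysoPS-OVA) and 0 (free OVA) rest on 2 and 0 UMIs against 0, and say nothing about its direction. Members past 1.5-fold were then 0 for both Foxp3-positive ratios to citrate buffer, 2 for T and 2 for naive CD8 (free OVA), 3 for naive CD8 (LysoPS-OVA) and 1 each for naive CD4 to citrate buffer. Without the library block the counts called were 0, 3, 2 and 1 for Foxp3-positive minus effector-memory, naive minus memory-like CD8, naive CD8 minus CD4 and Trdc-positive minus naive CD4, and DESeq2 called 3 for naive minus memory-like CD8. With a library left out the counts ran from 1 to 4, 3 to 6 and 3 to 5 in the first 3 of these, and at least 2 Foxp3 UMIs gave 4 in the first. Members past 1.5-fold in the Foxp3-positive gate were 1 and 1 with a strict T gate (LysoPS-OVA and free OVA over citrate buffer), 1 at 2-fold for LysoPS-OVA, 2 with at least 2 Foxp3 UMIs for free OVA, and 1 for LysoPS-OVA over free OVA with no filter. For free OVA over citrate buffer in T barcodes they were 2 with the mean of per-barcode CPM and 0 when centred on the median gene, with at most 5% mitochondrial UMIs, with Malat1 and ribosomal minimums, with the strict gate or at 2-fold. In naive CD4 (LysoPS-OVA over citrate buffer) the strict gate, or no need for a Cd4 UMI, gave 1. In naive CD8 the mean of per-barcode CPM gave 1 (LysoPS-OVA) and 2 (free OVA), and 2-fold gave 0 for free OVA. Counts of all genes moved more: Foxp3-positive minus naive CD4 called 65 to 1728 genes (main 1590), Foxp3-positive minus effector-memory CD4 8 to 340 (228), naive minus effector-memory CD4 108 to 1595 (1401), naive minus memory-like CD8 8 to 306 (310), naive CD8 minus CD4 36 to 1246 (1236), Trdc-positive minus naive CD4 12 to 681 (497), T minus B 5107 to 9295 (8279), T minus dendritic 3235 to 8980 (8381) and B minus dendritic 3116 to 8976 (8492). Genes past 1.5-fold ran from 16 to 183 (65), 9 to 138 (56) and 6 to 46 (20) in T barcodes for LysoPS-OVA over citrate buffer, free OVA over citrate buffer and LysoPS-OVA over free OVA. In the same order they ran from 15 to 227 (86), 13 to 253 (81) and 5 to 85 (23) in naive CD4, 18 to 378 (112), 21 to 492 (138) and 6 to 303 (51) in naive CD8, and 35 to 1409 (329), 29 to 1687 (438) and 15 to 1110 (227) in Foxp3-positive barcodes. Depth limits Dapl1 in the Foxp3-positive gate (15, 7 and 30 UMIs) and Igfbp4 in the memory-like CD8 gate (29, 15 and 14 UMIs).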

Other observations

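Barcodes in the NK gate, 37, 20 and 14 in all, lie outside the comparisons. In the order citrate buffer, free OVA, LysoPS-OVA they held 228, 141 and 212 CPM of Tcf7 and 312, 231 and 254 CPM of Lef1, and Tcf7 gave 42.3%, 37.9% and 45.5% of the UMIs of both genes.

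Among Trdc-positive T barcodes with a gamma constant UMI and no Trac UMI, 16, 10 and 27 in all, Lef1 stood at 1156, 682 and 800.4 CPM and Tcf7 at 276, 401 and 454 CPM. The whole Trdc-positive gate held 1538, 1132 and 1396 CPM of Lef1 and 447, 405 and 373 CPM of Tcf7.

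In effector-memory CD4 barcodes of the citrate buffer library the cycling genes Mki67 and Top2a were at 93.4 and 135 CPM, against 6.58 and 18.1 CPM with free OVA and 3.38 and 10.98 CPM with LysoPS-OVA.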
